A study of Mus musculus with 6 samples.

Results

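The miR-23/27/24 miRNAs come from 2 related clusters of hairpins, and both arms of those hairpins are described here in mouse cells given an siRNA against METTL3 or a control siRNA. The 10 names are mmu-miR-23a-3p, mmu-miR-23b-3p, mmu-miR-23b-5p, mmu-miR-27a-3p, mmu-miR-27a-5p, mmu-miR-27b-3p, mmu-miR-27b-5p, mmu-miR-24-3p, mmu-miR-24-1-5p and mmu-miR-24-2-5p, written below without the prefix mmu-. They are 10 of 1224 names in the table of all miRNAs and of 679 mouse names. The names were chosen by a list of mature names from these hairpins, drawn up with results of the comparison already known. It leaves out the remaining arm, miR-23a-5p, which the table also holds at low counts. Counts of members past a threshold are therefore a description, and each p-value is that of a fit across the whole table.

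The libraries are small RNA from GC-1spg cells, an immortalised line from mouse testis that serves as a model of spermatogonia. In 3 libraries the cells had received METTL3 siRNA (si-METTL3) and in 3 a control siRNA (si-NC, whose treatment label reads untreated). All were collected 48 h after transfection. METTL3 is the catalytic subunit of the enzyme complex that writes N6-methyladenosine into RNA. The labels print the same siRNA sequence for both groups, so the groups rest on the sample titles, and counts of mature miRNAs hold no measure of Mettl3 mRNA. Whether replicate libraries came from separate cultures is not stated in the labels, and the p-values may therefore reflect technical spread alone.

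Primary miRNA transcripts are cut by Drosha into hairpins and by Dicer into duplexes of a 5p and a 3p arm, of which one arm is usually retained in Argonaute and the other degraded. The 3′ ends of mature miRNAs can later be trimmed or extended, and terminal uridylyl transferases add U there. In other tissues miR-23 and miR-27 are known for roles in angiogenesis, miR-27 for restraining adipocyte differentiation and miR-24 for repressing cell cycle genes. In these hairpins the 3p arm is the usual guide strand and the 5p arm the passenger strand.

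The mature sequences below are those of the deposited table, 5′ to 3′ in DNA letters with the seed (bases 2 to 8) in capitals, and show which members share a seed.
miR-23a-3p: aTCACATTgccagggatttcc
miR-23b-3p: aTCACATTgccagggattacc
miR-27a-3p: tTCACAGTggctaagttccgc
miR-27b-3p: tTCACAGTggctaagttctgc
miR-24-3p: tGGCTCAGttcagcaggaacag
miR-24-1-5p: gTGCCTACtgagctgatatcagt
miR-24-2-5p: gTGCCTACtgagctgaaacagt
miR-23b-5p: gGGTTCCTggcatgctgattt
miR-27a-5p: aGGGCTTAgctgcttgtgagca
miR-27b-5p: aGAGCTTAgctgattggtgaac

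The miR-23 pair shares one seed, as do the miR-27 pair and the 5p arms of the miR-24 hairpins. Counted from 1 at the 5′ end, miR-23a-3p and miR-23b-3p differ by T19A and miR-27a-3p and miR-27b-3p by C19T, so a read that ends before base 19 cannot be given to one of a pair. RefSeq (GRCm38.p6) holds 9 of the 10 names, each with the letters of the deposited table, and miR-23b-3p was placed by its sequence on the Mir23b hairpin.

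One cluster spans 404 bases on the plus strand of GRCm38 (mm10), with Mir23a at chr8:84208518-84208592, Mir27a at chr8:84208672-84208758 and Mir24-2 at chr8:84208815-84208921. In GENCODE M21 no gene other than the miRNA genes overlaps Mir23a or Mir27a, and the lincRNA Gm26532 begins at the end of Mir24-2. The other cluster spans 792 bases on the plus strand inside the protein-coding gene 2010111I01Rik, and antisense to Fancc. It holds Mir23b at chr13:63300484-63300557, Mir27b at chr13:63300712-63300784 and Mir24-1 at chr13:63301208-63301275. Mir23b lies in an intron of 2010111I01Rik, Mir27b in an annotated exon of it, and Mir24-1 overlaps its exons. The hairpins of Mir23b, Mir23a and Mir27a follow in RNA letters from RefSeq, with the arms as deposited in capitals. They are shown because the forms and arms discussed below lie on them.
Mir23b: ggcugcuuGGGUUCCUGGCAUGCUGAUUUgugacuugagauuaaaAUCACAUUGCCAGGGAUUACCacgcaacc
Mir23a: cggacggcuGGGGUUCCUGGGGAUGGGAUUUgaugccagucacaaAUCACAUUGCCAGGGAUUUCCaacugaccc
Mir27a: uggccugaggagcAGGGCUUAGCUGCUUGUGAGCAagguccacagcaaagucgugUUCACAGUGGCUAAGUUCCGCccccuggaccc

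The mature miR-24-3p is encoded at chr8:84208875-84208896 and again at chr13:63301251-63301272, so its reads cannot be divided between the clusters. The 5p arms of the miR-24 hairpins differ and can be told apart.

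The library totals behind the deposited values ran from 3998058 to 6132668 reads, so 3 counts stand for 0.489 to 0.75 TPM, and no member had fewer than 169 counts in any library. All 6 listed markers of male germ cells were in the table, with a summed level of 530 to 552 TPM in si-NC and 544 to 581 in si-METTL3. None of the 5 markers of pluripotent cells was listed. Markers of endothelium (2 of 2 listed) summed to 78.5 to 97.8 TPM in si-NC and 64.6 to 76.3 in si-METTL3, those of blood (5 of 5) to 58.5 to 71.4 and 58.6 to 64.4, and those of muscle (3 of 3) to 92.0 to 95.9 and 47.6 to 63.9. Their part in the results was not tested. The libraries also stood apart by invertebrate miRNA names. bantam-y had 1 count in si-NC 1 and 52 to 252 in the others, and miR-750-y had 83 to 321 counts in si-NC 2, si-NC 3 and si-METTL3 1 and 0 elsewhere. A term for these 3 sets compares only si-METTL3 1 with its set-mates si-NC 2 and 3, and its values are given where they end a call. It was fitted to the levels of names alone, and ratios of arms or of forms were not fitted with it.

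The 3p arms were the abundant arms. TPM here is reads scaled to a common library total, and since a read covers a whole mature miRNA the levels need no length correction. miR-27b-3p ranked 2 among the mouse names by mean TPM, miR-24-3p 6, miR-23b-3p 19, miR-27a-3p 28 and miR-23a-3p 38. The 5p arms ranked between 76 (miR-24-2-5p) and 170 (miR-23b-5p). In si-NC the order was miR-27b-3p, miR-24-3p, miR-23b-3p, miR-27a-3p, miR-23a-3p, miR-24-2-5p, miR-27b-5p, miR-27a-5p, miR-24-1-5p and miR-23b-5p, and no neighbouring names overlapped between their libraries. In si-METTL3 miR-27a-5p (104 to 113 TPM) and miR-24-1-5p (108 to 115 TPM) did overlap.

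**Figure D1:**
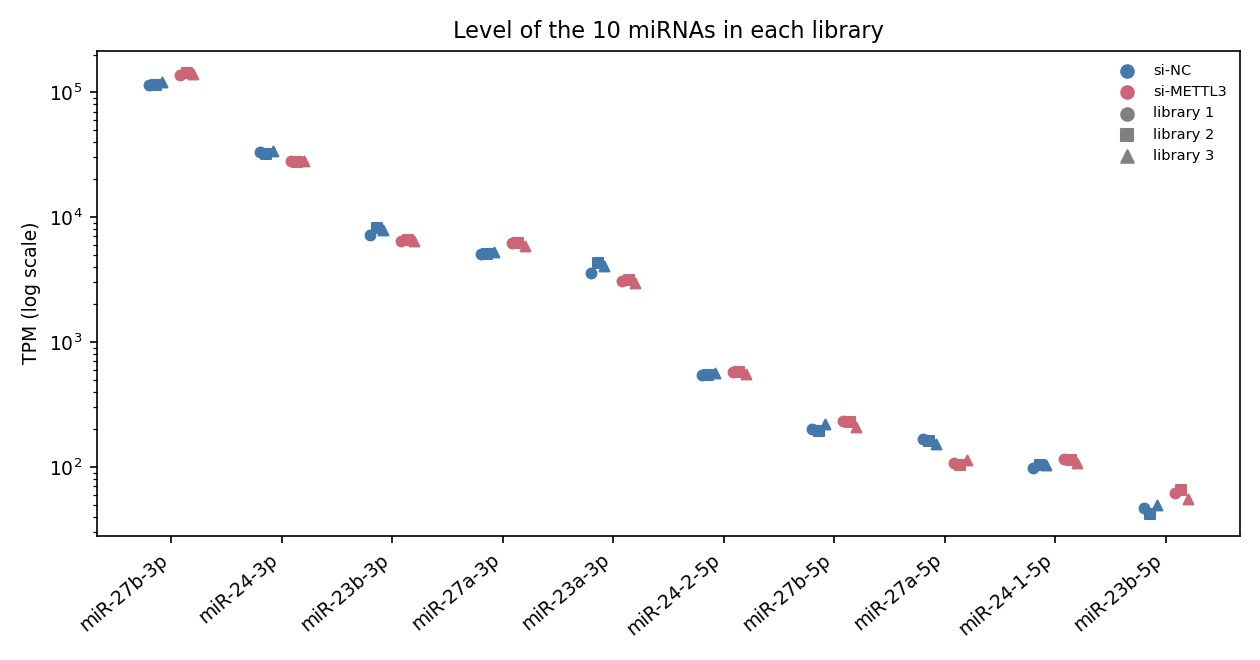
Level of the 10 miRNAs in each library, in TPM on a log axis, ordered by the si-NC mean. Blue points are the 3 si-NC libraries, red points the 3 si-METTL3 libraries, and the shape gives the library number. The levels run from 42.3 TPM for miR-23b-5p to 142914 TPM for miR-27b-3p.

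After METTL3 siRNA the guide strands, counted under their mouse names, moved in different directions, with both miR-27 guides higher and both miR-23 guides and miR-24-3p lower. The fall of miR-23b-3p did not hold with its longer forms added, as described below. That of miR-24-3p cannot be placed in either cluster. Of the 10 members, 5 were higher, 4 lower and 1 (miR-24-2-5p) did not reach significance, which is set at 0.05 for the p that edgeR's two-sided quasi-likelihood test on counts gives after Benjamini-Hochberg adjustment over 622 tested names. Over all tested names 29.3% passed, 17.7% higher and 11.6% lower. With library totals as the only scaling, the split over all names was 83 higher and 102 lower rather than 110 and 72. The median log2 fold (si-METTL3 over si-NC) was 0.14 over the members and 0.0054 over all tested names, and the median size of the log2 fold, whatever its sign, was 0.26 and 0.22. On CPM with edgeR's TMM scaling the libraries of the groups did not overlap for any of the 10 members, as in 41.2% of all tested names. The members were chosen with this contrast known, and nothing is read from these counts. TMM scaling raises a log2 fold by 0.07 (median over names) relative to the TPM values printed here.

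miR-27b-3p stood at 113877, 114834 and 120511 TPM in si-NC 1 to 3 and at 136542, 142914 and 138827 TPM in si-METTL3 1 to 3. Every si-METTL3 library lay above every si-NC library. The fold was 1.26 (log2 fold 0.33 ± 0.04 SE, adjusted p 7.1e-07, edgeR). Its paralogue miR-27a-3p, which shares its seed, stood at 5097, 5112 and 5221 TPM in si-NC and at 6173, 6241 and 5871 TPM in si-METTL3. Here too the groups did not overlap, and the log2 fold was 0.31 ± 0.04 (adjusted p 1.0e-06, edgeR). miR-27b-3p made up 95.8% ± 0.0707 (SD, n = 3) of the reads of the miR-27 pair in si-NC and 95.8% ± 0.134 in si-METTL3, and these shares overlap between the groups.

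The miR-23 guides, which repress glutaminase in human cells, went the other way. miR-23a-3p stood at 3558, 4272 and 4037 TPM in si-NC and at 3070, 3141 and 2989 TPM in si-METTL3. The si-METTL3 libraries were all below the si-NC libraries, of which si-NC 1 was the lowest. Its log2 fold was -0.30 ± 0.05 (adjusted p 3.5e-05, edgeR). miR-23b-3p stood at 7150, 8201 and 7954 TPM in si-NC and at 6430, 6594 and 6489 TPM in si-METTL3, again without overlap. edgeR gave it a log2 fold of -0.19 ± 0.04 with an adjusted p of 0.0018, a value that depends on which 3′ ends are counted as miR-23b-3p, as described below. miR-24-3p stood at 33413, 32161 and 33689 TPM in si-NC and at 28294, 27631 and 28262 TPM in si-METTL3. All its si-METTL3 libraries were lower, and the log2 fold from edgeR was -0.17 ± 0.04 with an adjusted p of 0.0014.

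Ratios within a library need no scaling between libraries. There were 15.0 ± 0.968 reads of miR-27b-3p per read of its cluster neighbour miR-23b-3p in si-NC and 21.4 ± 0.222 in si-METTL3 (n = 3, ± SD). In the other cluster there were 1.31 ± 0.119 reads of miR-27a-3p per read of miR-23a-3p in si-NC and 1.99 ± 0.0232 in si-METTL3. Both ratios were higher in every si-METTL3 library than in any si-NC library. They count the mouse names alone, so their sizes depend on which 3′ ends are counted. Of the longer forms described below, miR-23-z rose from 22.1 to 42.9 reads per 100 of miR-23b-3p. miR-23-y rose from 17.7 to 23.2 per 100 of miR-23a-3p. miR-23b-3p made up 66.3% ± 0.514 of the reads of the miR-23 pair in si-NC and 68.0% ± 0.437 in si-METTL3. The 10 members together held 16.7% ± 0.446 of the library total in si-NC and 18.4% ± 0.307 in si-METTL3. miR-27b-3p alone held 11.6% ± 0.359 and 13.9% ± 0.323, and the other 9 members fell from 5.10% ± 0.0885 to 4.48% ± 0.0223, so the summed share followed 1 miRNA.

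**Figure D2:**
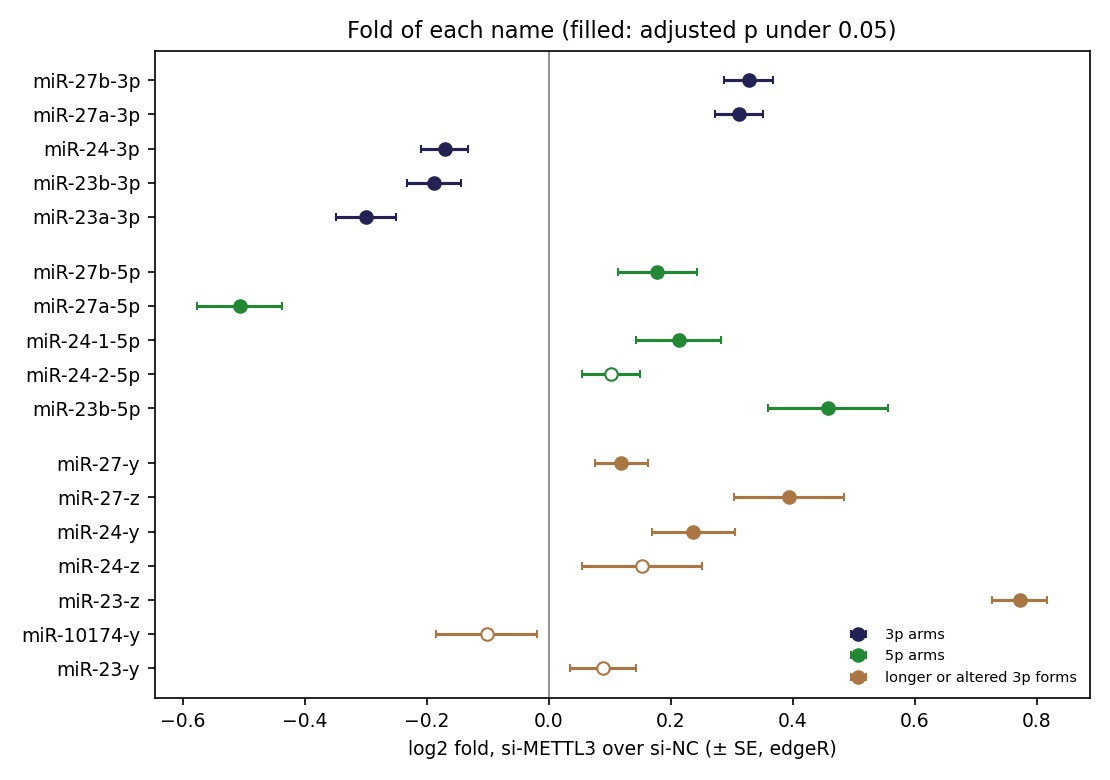
Log2 fold of each name, si-METTL3 over si-NC, from edgeR on the x axis with bars of 1 SE. Filled points passed an adjusted p of 0.05. The miR-27 guides lie right of 0 and the miR-23 and miR-24 guides left of it, while miR-27a-5p (log2 fold -0.51) and miR-23-z (log2 fold 0.77) lie farthest out.

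Among the 5p arms miR-27a-5p, the passenger of a guide that rose, and miR-23b-5p changed by similar sizes in opposite directions. miR-27a-5p stood at 167, 161 and 154 TPM in si-NC and at 107, 104 and 113 TPM in si-METTL3. The groups were far apart relative to their spread, and the log2 fold was -0.51 ± 0.07 (adjusted p 4.0e-06, edgeR). The guide of miR-23b-5p, miR-23b-3p, fell under its mouse name but not with its longer forms added. miR-23b-5p stood at 46.9, 42.3 and 49.96 TPM in si-NC and at 61.6, 65.7 and 55.2 TPM in si-METTL3. It was higher in every si-METTL3 library (log2 fold 0.46 ± 0.10, adjusted p 8.5e-04, edgeR).

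The other 5p arms of the list had smaller folds. miR-24-1-5p stood at 98.0, 105 and 103 TPM in si-NC and at 115, 115 and 108 TPM in si-METTL3 (edgeR log2 fold 0.21 ± 0.07, adjusted p 0.024). miR-27b-5p stood at 201, 195 and 222 TPM in si-NC and at 231, 229 and 208 TPM in si-METTL3, which overlap (edgeR log2 fold 0.18 ± 0.06, adjusted p 0.040). Both calls were lost when only library totals scaled the counts (log2 fold 0.15, adjusted p 0.145, and 0.11, adjusted p 0.234) and in the fit with the set term (0.20, adjusted p 0.268, and 0.20, adjusted p 0.158). Both were lost too on leaving out si-NC 1 or either of si-METTL3 1 and 2, as was that of miR-24-1-5p without si-NC 3 and that of miR-27b-5p without si-NC 2 (adjusted p 0.057 to 0.200). miR-24-2-5p, the most abundant passenger, stood at 541, 548 and 569 TPM in si-NC and at 572, 573 and 554 TPM in si-METTL3. Its log2 fold was 0.10 ± 0.05 (adjusted p 0.117, edgeR), and its groups overlap on TPM.

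The balance of the arms therefore shifted in different directions from hairpin to hairpin. Arms were compared as 5p reads per 100 reads of the 3p arm, with limma on log2 ratios (0.5 added to each count) for the 148 mouse hairpins with a mean of at least 10 counts in both arms. Of those, 23% passed an adjusted p of 0.05, with 21 ratios higher and 13 lower. The median size of the log2 change, whatever its sign, was 0.27 over the 148. By that size miR-27a ranked 10 among them. In this fit limma shared one trend of spread across all hairpins. Without its trend and robust options, an alternative chosen after seeing the data, 15 of 148 passed.

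For Mir27a there were 3.28, 3.14 and 2.95 reads of miR-27a-5p per 100 of miR-27a-3p in si-NC and 1.74, 1.66 and 1.92 in si-METTL3. The mean fell from 3.12 ± 0.168 to 1.77 ± 0.135 (SD, n = 3), a log2 change of -0.82 ± 0.09 (adjusted p 3.1e-18 with limma, 0.0087 without trend and robust options). For Mir23b there were 0.656, 0.515 and 0.628 reads of miR-23b-5p per 100 of miR-23b-3p in si-NC and 0.959, 0.997 and 0.850 in si-METTL3. The ratio was higher in every si-METTL3 library, a log2 change of 0.64 ± 0.10 (adjusted p 1.0e-08 with limma, 0.037 without those options). The clusters thus each held a hairpin whose balance moved, toward the guide in Mir27a and toward the passenger in Mir23b.

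Both miR-24 passengers gained on the shared guide. The mean of miR-24-1-5p per 100 miR-24-3p reads was 0.308 ± 0.0161 for the control and 0.402 ± 0.0168 after METTL3 siRNA (SD, n = 3), a log2 change of 0.38 ± 0.09 (adjusted p 1.7e-04, limma). That of miR-24-2-5p was 1.67 ± 0.0454 and 2.02 ± 0.0564, a log2 change of 0.27 ± 0.06 (adjusted p 1.5e-05, limma). These 2 ratios share their denominator, and neither passed without trend and robust options (adjusted p 0.052 and 0.094). For Mir27b the ratio was 0.177 ± 0.00708 in si-NC and 0.160 ± 0.00999 in si-METTL3, a log2 change of -0.15 ± 0.08 that did not pass (adjusted p 0.163, limma). For Mir23a, whose 5p arm had 7 to 21 counts a library, the ratio was 0.0944 ± 0.0462 and 0.0621 ± 0.0101. Its groups overlap, and its log2 change of -0.48 ± 0.48 did not pass (adjusted p 0.492, limma).

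In 3 of the hairpins (Mir23b, Mir24-1 and Mir27a) the names counted for both arms passed edgeR's threshold in opposite directions. Over the 144 mouse hairpins with both arms tested this was so for 7, or 4.86%. The others of the 7 were miR-26b, miR-30b, miR-125b-1 and miR-125b-2. Mir23b counts here only while its longer forms are kept under other names, and the call of miR-24-1-5p carries the limits given above. Mir24-1 counts only by pairing miR-24-1-5p with all reads of miR-24-3p, which cannot be divided between the clusters. Whether the guide made from Mir24-1 itself fell is therefore not known.

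**Figure D3:**
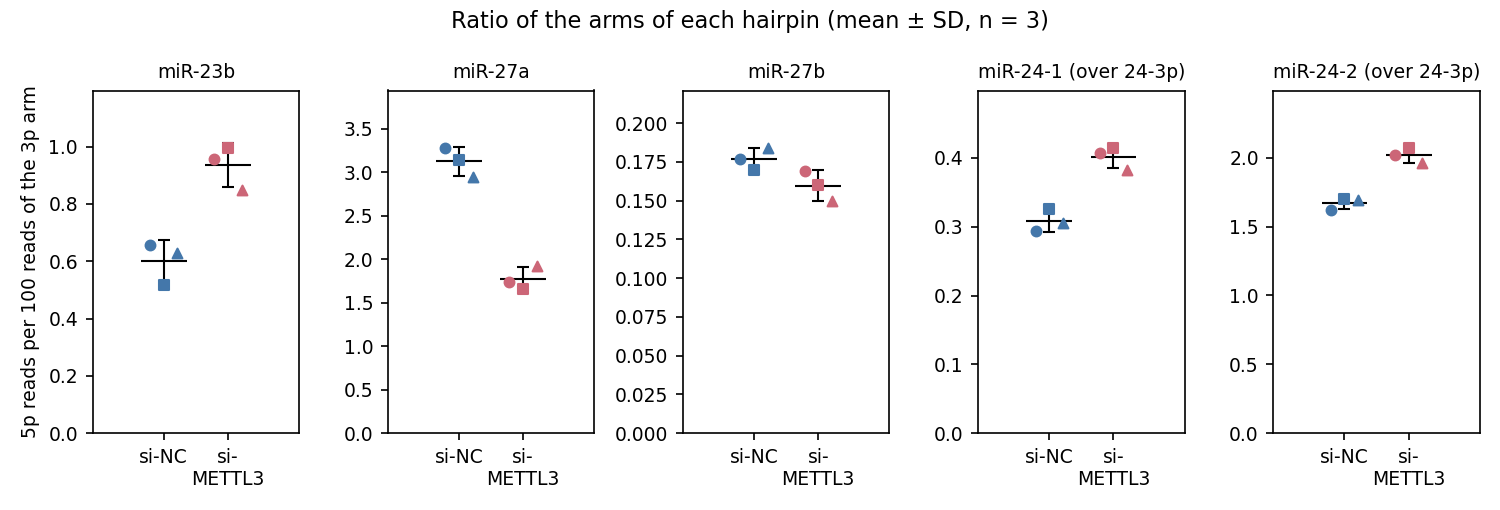
Reads of the 5p arm per 100 reads of the 3p arm, per library (y axis from 0, a scale for each hairpin). Points are libraries, with circles, squares and triangles for libraries 1, 2 and 3, and bars give mean ± SD (n = 3). Mir27a fell from 3.12 to 1.77 and Mir23b rose from 0.600 to 0.935, while the change of Mir27b did not pass.

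The table also lists forms of these arms under names of other species, with the endings -x, -y and -z. A form was matched to a mouse name when both start at the same base and differ only in their last bases, which gave 9 forms for the members. Those of the 3p arms are printed next, with the last bases that do not lie on the mouse hairpin in capitals.
miR-23-z (of miR-23b-3p): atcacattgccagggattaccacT
miR-10174-y (of miR-23b-3p): atcacattgccagggattaccaT
miR-23-y (of miR-23a-3p): atcacattgccagggatttccaaT
miR-27-y (of miR-27b-3p): ttcacagtggctaagttctgATT
miR-27-z (of miR-27a-3p): ttcacagtggctaagttccgAG
miR-24-y (of miR-24-3p): tggctcagttcagcaggaacaCT
miR-24-z (of miR-24-3p): tggctcagttcagcaggaacagTT

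They keep the seed of the guide. Each of the 3 miR-23 forms runs past the mouse name along the hairpin and ends in 1 T (U in the RNA) that the hairpin does not hold. How reads were given to these names, and whether a name also holds reads with other ends, is not stated by the sources read here.

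miR-23-z, the 24-base form of miR-23b-3p, rose while the 21-base miR-23b-3p fell. It stood at 1622, 1812 and 1705 TPM in si-NC and at 2725, 2894 and 2759 TPM in si-METTL3, with no overlap (log2 fold 0.77 ± 0.05, adjusted p 5.1e-12, edgeR). Per 100 reads of miR-23b-3p there were 22.7, 22.1 and 21.4 reads of miR-23-z in si-NC and 42.4, 43.9 and 42.5 in si-METTL3. The spread within a group was small against that step, a log2 change of 0.96 ± 0.04 (limma, adjusted p 6.7e-80, and 0.0029 without trend and robust options). Of the 134 such ratios in the table with a mean of at least 10 counts in both names, 17.9% passed (13 higher, 11 lower), and 2 of 134 without those options. By size of change miR-23-z ranked 3 among the 134. In this fit too limma shared one trend of spread, here across all ratios of forms. Without trend and robust options the SE of miR-23-z was 0.08.

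The neighbouring form miR-10174-y, which leaves the hairpin 1 base earlier than miR-23-z, showed no change past the threshold. It stood at 2.86 ± 0.241 reads per 100 of miR-23b-3p in the control and 3.05 ± 0.234 after METTL3 siRNA (SD, n = 3), a log2 change of 0.09 ± 0.07 (adjusted p 0.446, limma). With both forms added, the 3p arm of Mir23b summed to 8974, 10269 and 9870 TPM in si-NC and to 9347, 9706 and 9433 TPM in si-METTL3, and the groups overlap. When all forms were summed into their mouse arms and the table was fitted again, the log2 fold of miR-23b-3p was 0.06 ± 0.04 (adjusted p 0.309, edgeR). The fall of miR-23b-3p thus passed the test for the 21-base name and not for the summed arm. The 5p to 3p ratio of Mir23b passed on summed counts with a smaller change (log2 change 0.42 ± 0.10, adjusted p 8.0e-04, limma). It was not fitted on summed counts without trend and robust options, so whether it would pass there is not known.

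In the paralogous Mir23a the longer form miR-23-y stood at 701 ± 58.5 TPM in the control and 712 ± 29.4 after METTL3 siRNA (SD, n = 3), while miR-23a-3p fell. The edgeR log2 fold of miR-23-y was 0.09 ± 0.05, which did not pass (adjusted p 0.243). Its ratio to miR-23a-3p rose from 17.7 ± 0.693 to 23.2 ± 0.405 per 100, a log2 change of 0.39 ± 0.05 (adjusted p 1.8e-12 with limma, 0.060 without trend and robust options). Summed with its form, the 3p arm of Mir23a was still lower in every si-METTL3 library, at 3778 ± 105 against 4657 ± 418 TPM (edgeR log2 fold -0.21 ± 0.05, adjusted p 0.0029).

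**Figure D4:**
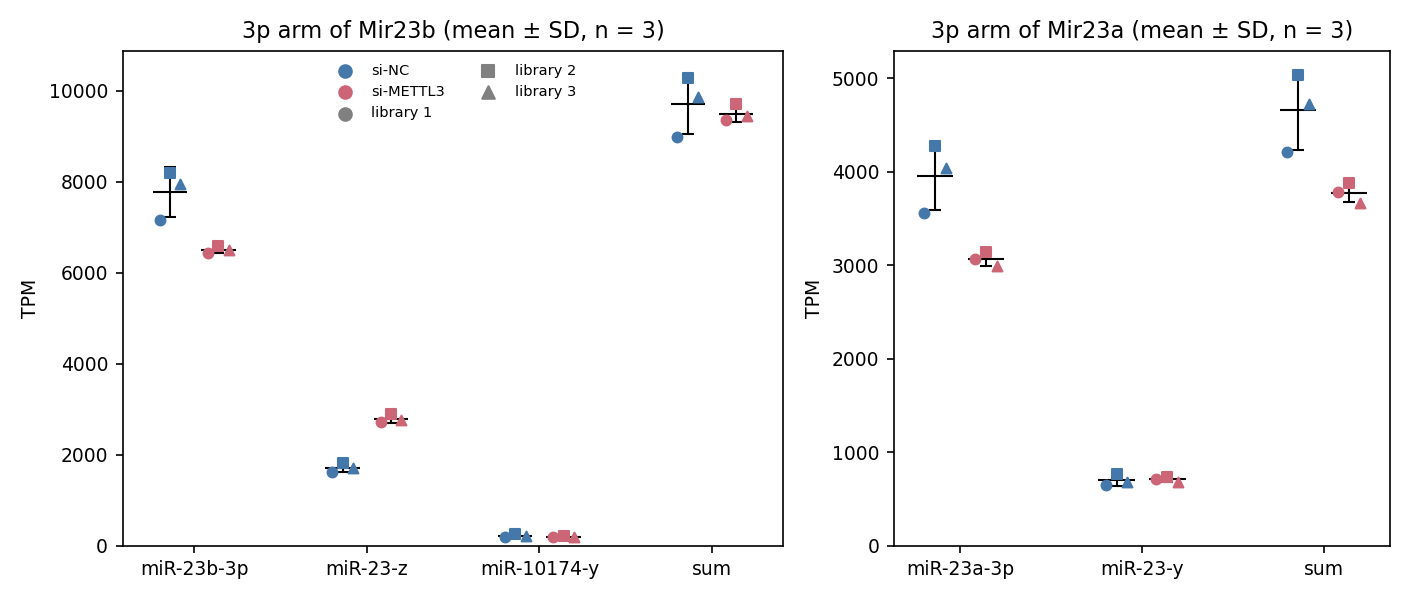
TPM of the mouse name, its forms and their sum for the 3p arms of Mir23b (left) and Mir23a (right), per library, with mean ± SD (n = 3) and axes from 0. On the left the 21-base name fell while miR-23-z rose and the sums overlap, and on the right the sum stayed lower in si-METTL3, at 3778 against 4657 TPM.

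For the other guides, no ratio of a form changed as much as that of miR-23-z. miR-27-y held 2.26 ± 0.126 reads per 100 of miR-27b-3p in si-NC and 1.96 ± 0.0369 in si-METTL3, a log2 change of -0.21 ± 0.04 (adjusted p 1.2e-05 with limma, 0.194 without trend and robust options). miR-24-y rose from 0.383 ± 0.0268 to 0.508 ± 0.0195 per 100 of miR-24-3p (log2 change 0.41 ± 0.08, adjusted p 2.1e-05 with limma, 0.065 without). miR-24-z had a log2 change of 0.32 ± 0.11 (adjusted p 0.021 with limma, 0.194 without), with overlapping groups, and was lost without any 1 of si-NC 1, si-NC 3, si-METTL3 1 and si-METTL3 3 (adjusted p 0.076 to 0.228). miR-27-z had 0.08 ± 0.10 against miR-27a-3p (adjusted p 0.715, limma), and miR-27-x, a longer form of miR-27b-5p, -0.46 ± 0.29 (adjusted p 0.285, limma). In their own levels miR-27-z (log2 fold 0.39 ± 0.09, adjusted p 0.0015, edgeR), miR-24-y (0.24 ± 0.07, adjusted p 0.0095) and miR-27-y (0.12 ± 0.04, adjusted p 0.041) rose. The calls of miR-24-y and miR-27-y ended under scaling by library totals only (adjusted p 0.069 and 0.385) and in the fit with the set term (0.398 and 0.648). That of miR-24-y was also lost without si-METTL3 2 (0.051), and that of miR-27-y on leaving out si-NC 3 or either of si-METTL3 2 and 3 (0.14 to 0.217). Summing the forms left the direction of miR-27b-3p (log2 fold 0.35 ± 0.04), miR-27a-3p (0.34 ± 0.04) and miR-24-3p (-0.14 ± 0.04) as it was, with adjusted p of 0.0057 or less (edgeR).

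Over the 6 libraries the log2 level of miR-27b-3p was most like that of miR-15b-5p (Pearson r 0.989), miR-199a-5p (0.986) and miR-361-5p (0.986), among 136 other mouse names with a mean of at least 100 TPM. For miR-24-3p the most alike were miR-29a-3p (0.977), miR-344-3p (0.975) and miR-92a-1-5p (0.973). These values describe 6 shared libraries of 2 groups, and a name that differs between the groups in the same direction tends to score high. miR-29a-3p did not pass between the groups (log2 fold -0.07, adjusted p 0.163, edgeR). The others passed in the direction of their member (adjusted p 0.012 or less, edgeR). Their log2 folds were 0.29 (miR-15b-5p), 0.87 (miR-199a-5p), 0.50 (miR-361-5p), -0.38 (miR-344-3p) and -0.19 (miR-92a-1-5p).

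Other miRNAs known from the same processes are given for context, and their counts are a description with no test of the lists. Over all tested names 17.7% were higher and 11.6% lower, a split that turned with library totals as the only scaling. Of 12 angiogenesis miRNAs, all tested, 1 was higher and 4 lower (median log2 fold -0.15). miR-222-3p (log2 fold -0.28 ± 0.05, adjusted p 3.5e-05, edgeR), miR-221-3p (-0.24 ± 0.04, adjusted p 8.0e-05) and miR-130a-3p (-0.22 ± 0.06, adjusted p 0.0055) fell, and miR-210-3p, a hypoxia-induced miRNA, rose by 0.19 ± 0.07 (adjusted p 0.046). Of 11 tested miRNAs linked to lipid metabolism and adipocyte differentiation, 2 were higher and 5 lower (median -0.06). Here miR-148a-3p rose (0.26 ± 0.05, adjusted p 1.8e-04, edgeR), while miR-107-3p (-0.28 ± 0.06, adjusted p 5.4e-04), miR-143-3p (-0.23 ± 0.04, adjusted p 2.2e-04) and miR-130a-3p, counted in both lists, fell.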

How the data were processed

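The deposited table of all miRNAs gives, per the file headers, a count of reads per miRNA name and a TPM for each library. Each deposited TPM equals the count scaled by one library total to within 5e-05, with 0 written as 0.01, and those totals were taken as library sizes. The authors' log2 fold change, p-value and FDR, the authors' group means and the deposited length and total (other values) were not used. The build mm10 and the tools RSEM, StringTie, Bowtie2 and fastp appear, per the submitters' processing notes, with no role stated. Of its lines, 2 had been emptied and are not analysed here.

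Counts were fitted with edgeR 4.0.16 (TMM, filterByExpr, robust quasi-likelihood, 622 names, 4 residual degrees of freedom). Ratios of arms and of forms were fitted with limma 3.58.1. DESeq2 1.42.0 served as an alternative. The edgeR and limma fits were also run on simulated independent counts. Those had one spread for all names and no library sets, and nothing is read from that run. All 10 members passed the filter on low counts. Named are all members, their forms, miR-3074, the 3 most alike names for 2 members and up to 4 called names per list. The members and lists were chosen with earlier results of these data known. Values of ± SE come from the fits, which estimate the spread between libraries, and ± SD is that spread itself. For the ratios of arms and of forms, limma's SE and p rest largely on a spread shared across all ratios. Limits from counts cover counting error only.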

Additional observations from a re-analysis of the deposited data

How the results depend on the processing

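The scaling brings libraries to one level, so a shift shared by all miRNAs would not show, and 5p arms with low counts have the largest errors. The count of names past the threshold was 182, and 153 to 171 when 1 library was left out. With the replicate number as a block it was 176, and the block ended, among the members, the call of miR-27b-5p alone (log2 fold 0.18, adjusted p 0.051). It also ended that of the ratio of miR-24-z (adjusted p 0.094), and no other call on a named member, form or arm ratio. Deviations of same-numbered libraries from their group means had correlations of -0.07, 0.21 and -0.18 over 172 names. These were not tested, and with so few libraries they cannot show whether the numbers pair libraries. Arm ratios past the threshold numbered 34 (27 to 38 with 1 library left out, 15 without limma's trend and robust options), and ratios of forms 24 (16 to 22, and 2). Without those options the arm ratios of miR-24-1 (log2 change 0.38) and miR-24-2 (0.27) no longer passed. The call of miR-27b-5p was also lost with DESeq2 size factors (0.16), library totals alone (0.11), a minimum of 10 CPM in 3 libraries (0.16), DESeq2's Wald test (0.16), limma on log2 TPM with a pseudocount of 1 (0.11), 0.5 (0.11) or 5 (0.11), and the term for sets (0.20). That of miR-24-1-5p was lost with library totals alone (0.15), DESeq2's Wald test (0.20), limma with the same pseudocounts (0.14, 0.15 and 0.14) and the term for sets (0.20). With 1 library left out miR-27b-5p ranged from 0.13 to 0.22 and miR-24-1-5p from 0.20 to 0.23. Summing forms into mouse arms turned the log2 fold of miR-23b-3p to 0.064 and brought miR-24-2-5p past the threshold (0.13, adjusted p 0.024). miR-10174-y, which did not pass, ranged from -0.18 to 0.00071 with 1 library left out. The summed fit both added counts and scaled the libraries anew. miR-24-x, the form summed into miR-24-2-5p, had 3 to 11 counts in a library. In that fit miR-27a-5p, which has no matched form, moved from -0.51 to -0.48. miR-23b-5p, also without a matched form, moved from 0.46 to 0.49. The cause of these changes was not tested. miR-23a-3p, miR-27a-3p, miR-27a-5p, miR-24-3p, miR-23b-5p and miR-27b-3p kept direction and call in every alternative run.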

Other observations

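Some names of these loci had too few counts for the fit of levels. miR-23a-5p, the remaining passenger arm and not one of the 10 names, had counts of 21, 14 and 9 in the control libraries and of 12, 10 and 7 after METTL3 siRNA. Names of miR-3074, which lies antisense on the miR-24 hairpins, had at most 7 counts in a library, for miR-3074-1-3p. miR-24-x, a longer form of miR-24-2-5p, had 3, 5 and 3 counts in si-NC and 8, 10 and 11 in si-METTL3. miR-23-x, which is miR-23b-5p with 1 extra base at its 5′ end, had 0 to 3 counts.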
